A study of Homo sapiens with 6 samples.

Results

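The 40 genes described here carry out or control DNA replication and entry into S phase, and they were taken by symbol from a list of replication factors. That list was chosen with earlier results of these data known. All 40 were found among the 17039 genes of the expression matrix, and all 40 passed the filter on low values, a mean of at least 0.1 FPKM over the 6 libraries, as did 13465 genes in all. Expression was compared between 231-BR cells, a brain-seeking variant of the human triple-negative breast cancer line MDA-MB-231, and MDA-MB-231 cells themselves, with 3 poly(A) RNA sequencing libraries of each line. Both lines were grown in DMEM with fetal bovine serum and penicillin-streptomycin, and the 231-BR medium also held the antibiotic G418, so line and G418 cannot be told apart. The libraries were grouped by their titles, since in another label field the number in the line's name counts up from replicate to replicate. Nothing says that the replicates were separate cultures, so p-values measure only the spread between these libraries.

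DNA replication begins at origins, which the origin recognition complex binds and on which CDC6 and CDT1 load the ring-shaped MCM2-7 helicase before S phase. CDC45 and the GINS complex then join the ring to form the active helicase, and the replisome adds primase, the polymerases alpha, delta and epsilon, the sliding clamp PCNA with its RFC loader, and the single-strand binding protein RPA. Transcription of many of these genes rises at the G1/S boundary under E2F factors, which the RB family restrains until cyclin-dependent kinases inactivate it, and in tumours their mRNAs are commonly read as a measure of proliferation.

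The values are FPKM, which divides the fragments of a transcript by its length and by the mapped fragments of the library, so levels of different genes can be set beside each other. Read counts were not used here and the depth of the libraries is unknown. The summed FPKM per library ran from 465020 to 472007 in 231-BR cells and from 486937 to 496420 in MDA-MB-231 cells. Pearson correlations across genes, which are not independent replicates, were 0.997 to 0.998 between libraries of the same line and 0.900 to 0.903 between lines. VIM, the intermediate filament of mesenchymal cells, was read at 2273 FPKM or more in every library, while of the receptors that define the triple-negative class ESR1 stayed at or under 1.08 FPKM, PGR at or under 0.07 FPKM and ERBB2 between 4.75 and 10.2 FPKM. PTPRC, CD3E, CDH5, VWF, GFAP and AQP4, which define leukocytes, endothelium and glia, were at or under 0.07 FPKM in every library, and PECAM1, RBFOX3 and SNAP25 at or under 0.48 FPKM. MBP and CD68, which are also transcribed outside glia and macrophages, were the exceptions among these markers in both lines. CD68 ran from 80.6 to 84.2 FPKM in 231-BR libraries and from 61.9 to 64.7 FPKM in MDA-MB-231 libraries. MBP ran from 20.6 to 21.2 FPKM and from 12.8 to 14.3 FPKM.

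Most replication genes were modestly lower in 231-BR cells, and a smaller group that included subunits of the same complexes was higher. With limma's moderated test and Benjamini-Hochberg adjustment over all genes tested, 24 of the 40 genes were called lower in 231-BR cells (adjusted p under 0.05), where 32.9% of all genes tested were, 9 were higher, where 44.4% of all genes were, and 7 did not pass. The 33 that passed in either direction compare with 77.3% of all genes tested. The median log2 fold change of 231-BR over MDA-MB-231, on the log2(FPKM + 0.1) scale, was -0.215 over the 40 genes (quartiles -0.46 and 0.036) and 0.077 over all genes tested. Among all genes tested with a mean of at least 5 FPKM it was 0.024. The summed FPKM of the 40 genes was 1769, 1797 and 1780 for 231-BR cells, against 2124, 2137 and 2130 for MDA-MB-231 cells, or 0.377% to 0.381% and 0.429% to 0.436% of all FPKM. The sums of the lines did not overlap. Abundant genes weigh most in such a sum, and TYMS alone had 126 ± 1.84 FPKM in 231-BR against 253 ± 4.59 FPKM in MDA-MB-231 (SD, n = 3 each). In bulk RNA, fewer cells in S phase and less of these mRNAs per cell cannot be told apart.

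Differences were small for most members, which ranged from -1.003 for TYMS to 0.85 for POLE2. A 1.5-fold size together with an adjusted p under 0.05 was reached by 5 genes that were lower in 231-BR cells (TYMS, MCM3, E2F2, ORC6 and POLA1), where 10.9% of all genes tested passed (3 genes without 231-BR replicate 3, 2 with a pseudocount of 1 and 9 after median-of-ratios scaling), and by 2 that were higher (POLE2 and GINS4), where 21% passed, so that 31.9% of all genes passed in either direction. The criteria for differential expression, read here as the study's thresholds with the FPKM threshold applied to the mean of each line, ask in addition for more than 1 on the log2 scale in either direction and for at least 1 FPKM on average in both lines. TYMS alone met them, where 1.77% of all genes passed as lower, 4.68% as higher and 6.45% in either direction. Its value was -1.003, so that it missed them without 231-BR replicate 1, without MDA-MB-231 replicate 1 without MDA-MB-231 replicate 2, with a pseudocount of 1 and after quantile normalization. Every 231-BR library lay below every MDA-MB-231 library for 24 genes and above for 10, against 33.5% and 44.9% of all genes tested, or 78.4% in either direction. After quantile normalization the median of all genes moved to -0.060, and 45.6% of the genes called were higher in 231-BR cells in place of 57.4%. Relative to the median of all genes, the median of the 40 genes lay at -0.292, and at -0.176 after quantile normalization.

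**Figure D1:**
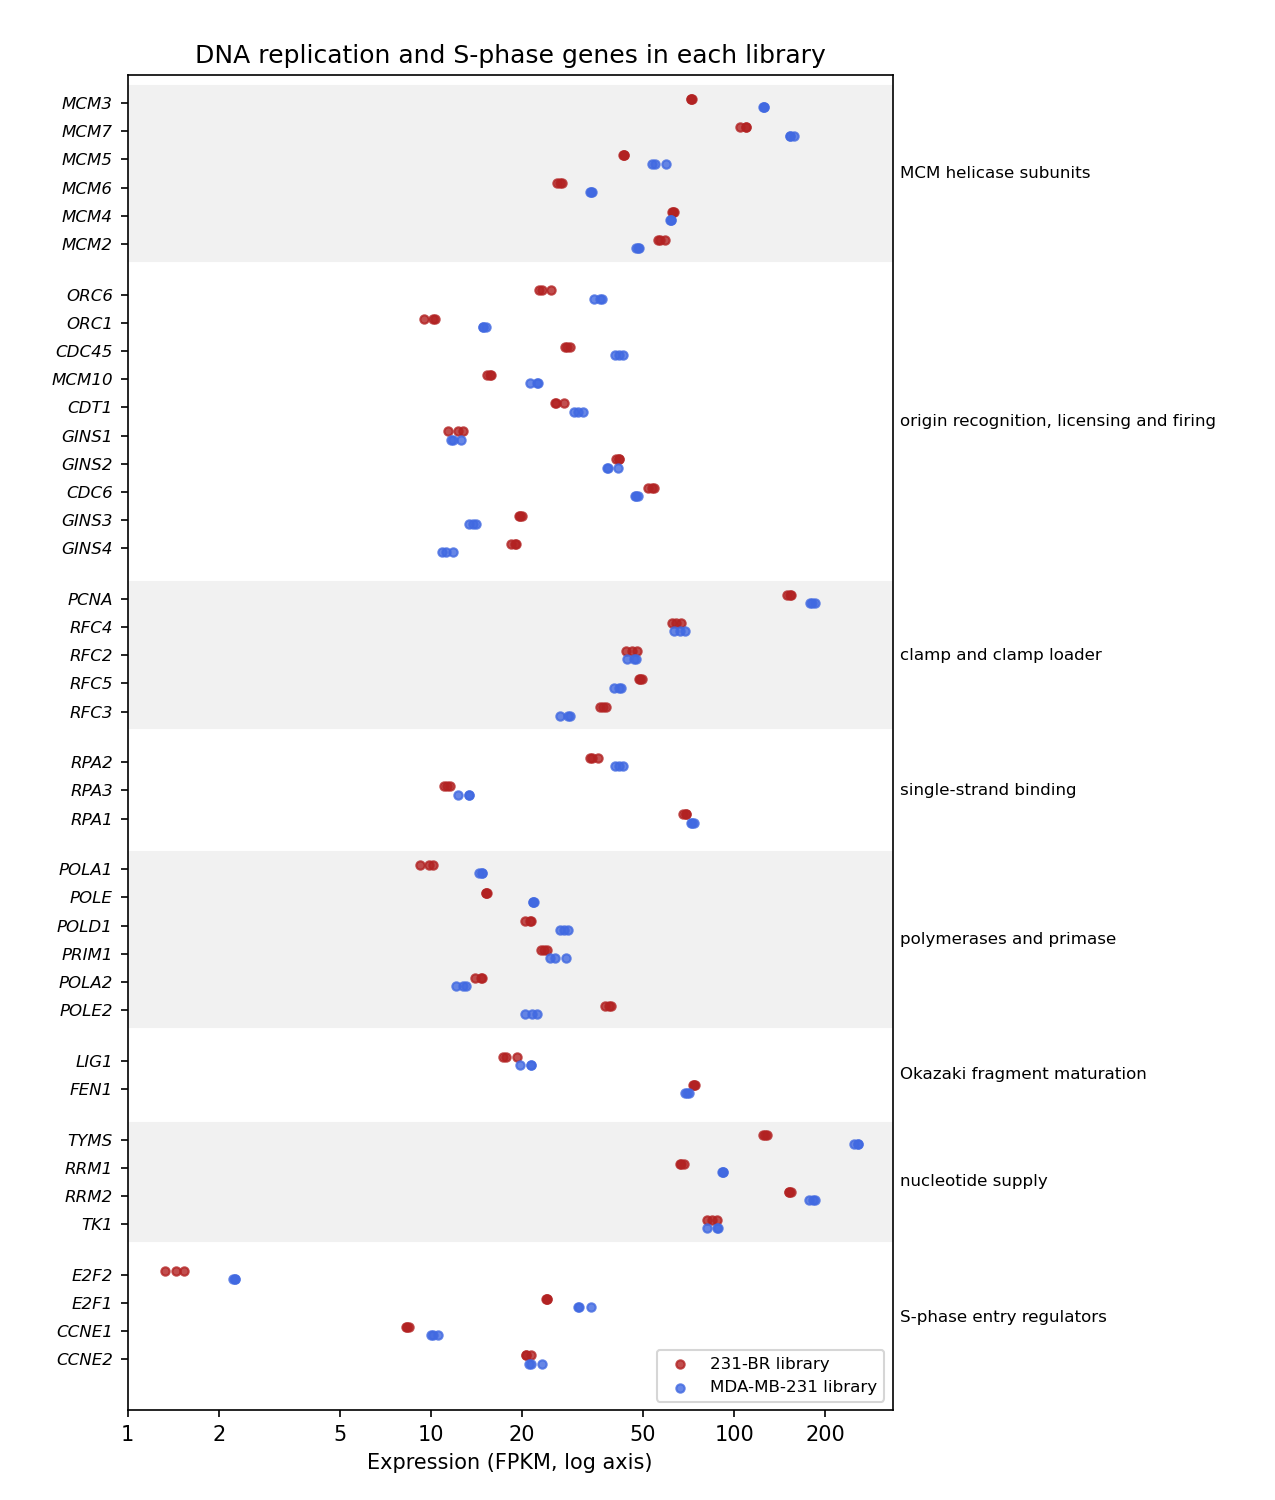
FPKM of the 40 replication and S-phase genes in each library on a log axis, grouped by role, with 231-BR libraries in red and MDA-MB-231 libraries in blue. Within a line the 3 points of a gene lie close together, and the lines are furthest apart for TYMS and POLE2, in opposite directions.

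**Figure D2:**
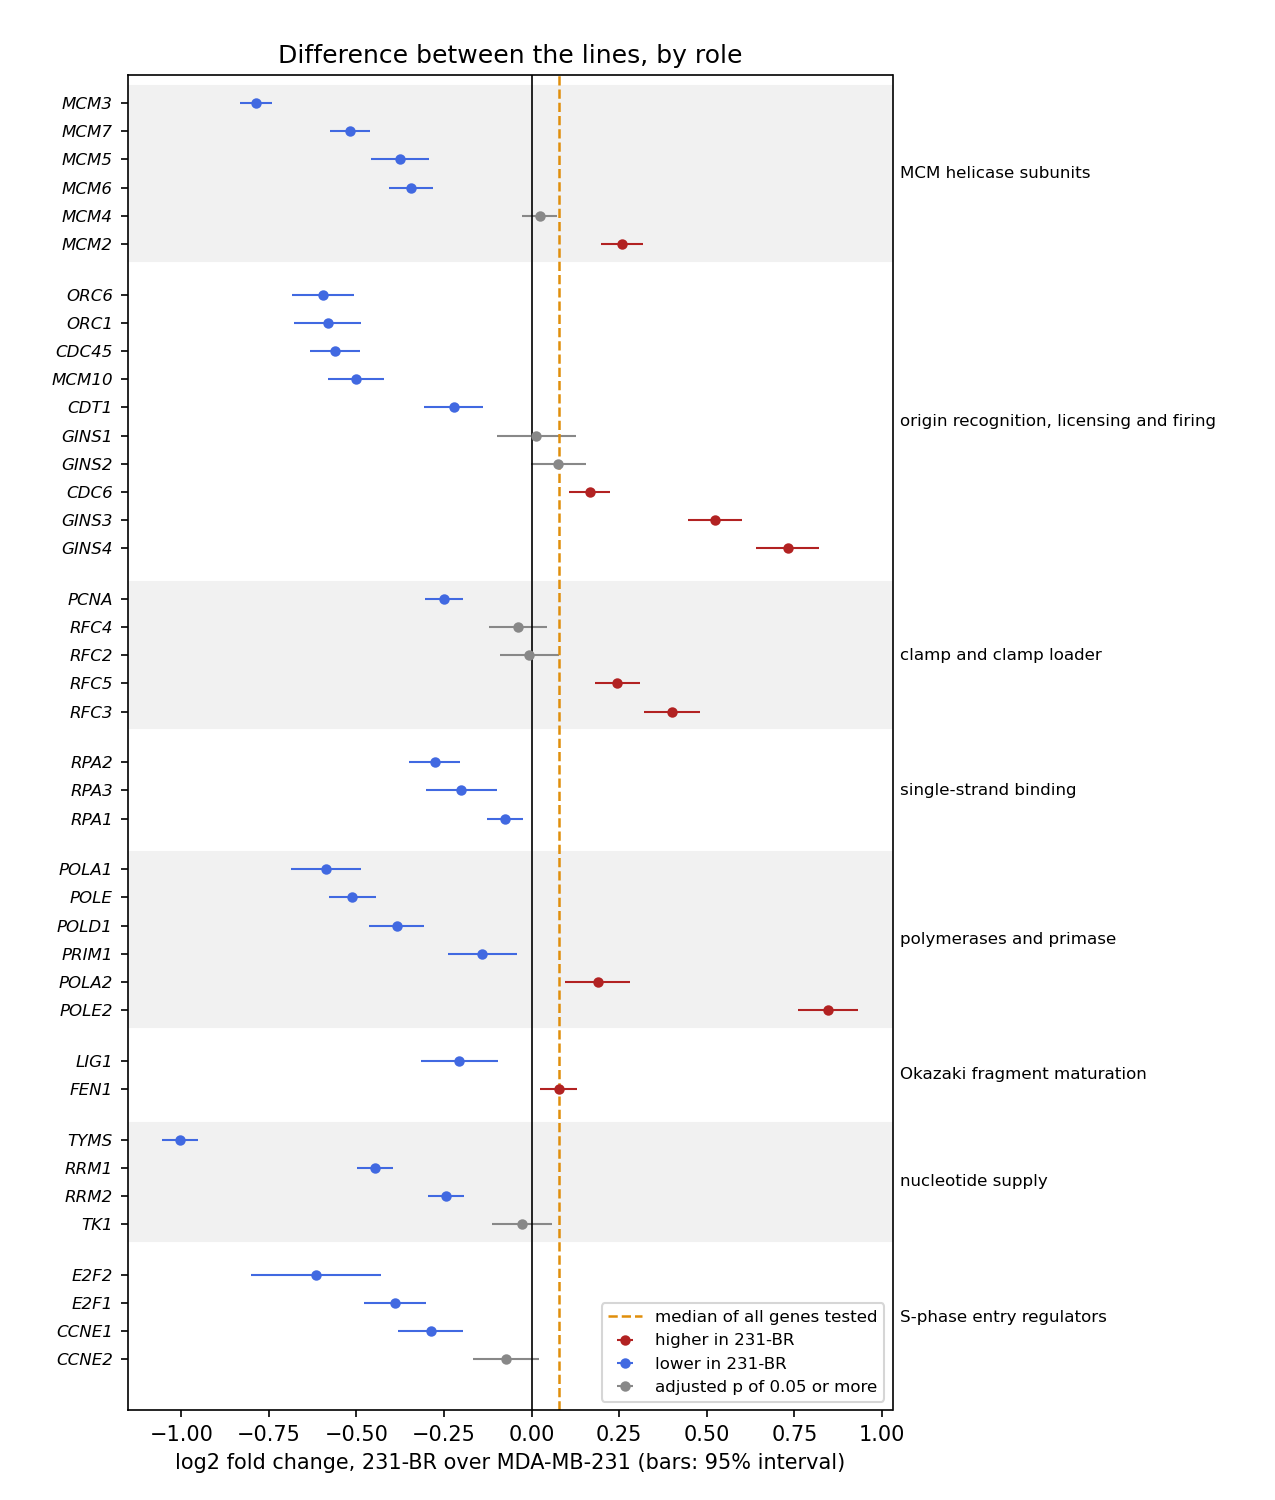
Log2 fold change of 231-BR over MDA-MB-231 for each gene with its 95% interval from limma, grouped by role and coloured by the call at an adjusted p under 0.05. The dashed line is the median of all genes tested, 0.077, and 24 genes lie below 0 with a call while 9 lie above it.

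The MCM2-7 helicase is a single ring of 6 subunits. Of these, 4 were lower in 231-BR cells, where 32.9% of all genes tested were, and 1 was higher, where 44.4% were. MCM3 (gene 4172, chr6:52264009-52284881 on the minus strand of GRCh38) was read at 72.6, 72.0 and 72.2 FPKM in the 231-BR libraries and at 125, 124 and 125 FPKM in the MDA-MB-231 libraries. The groups were far apart beside the spread within each, and the log2 fold change was -0.79 (standard error SE 0.021, limma adjusted p = 4.5e-10). MCM7 (gene 4176, chr7:100092728-100101940, minus strand), the most abundant subunit, was read at 105, 109 and 109 FPKM against 153, 153 and 157 FPKM, a log2 fold change of -0.52. MCM5 and MCM6 were lower as well, with 43.1 ± 0.216 against 56.0 ± 3.03 FPKM and 26.6 ± 0.510 against 33.8 ± 0.264 FPKM (SD, n = 3 each). MCM2 (gene 4171, chr3:127598223-127622436, plus strand) went the other way, at 56.2, 59.0 and 56.9 FPKM against 47.4, 48.4 and 48.1 FPKM, so that every 231-BR library lay above every MDA-MB-231 library. Its log2 fold change was 0.26 (SE 0.027, limma adjusted p = 1e-05). MCM4 had 62.8 ± 0.592 and 61.8 ± 0.230 FPKM (SD, n = 3 each) and did not pass the test, with a 95% interval of the log2 fold change from -0.03 to 0.07, while after median-of-ratios scaling its value was -0.06 (adjusted p = 0.033).

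The factors that mark, license and fire origins were split. ORC1, the ATPase subunit of the origin recognition complex, was read at 10.3, 10.2 and 9.47 FPKM in 231-BR libraries and at 14.9, 15.2 and 14.9 FPKM in MDA-MB-231 libraries, a log2 fold change of -0.58. ORC6, the smallest subunit of the same complex, was read at 23.2, 24.9 and 22.8 FPKM against 36.6, 36.0 and 34.6 FPKM, a log2 fold change of -0.60. CDC45, which joins the loaded ring to make it an active helicase, was lower with 28.2 ± 0.506 against 41.7 ± 1.33 FPKM (SD, n = 3 each), for a log2 fold change of -0.56. MCM10, which takes part in helicase activation and is not a subunit of the ring, had 15.6 ± 0.286 against 22.1 ± 0.721 FPKM (SD, n = 3 each). The loaders CDT1 and CDC6 differed in opposite directions. CDT1 was lower, at 26.3 ± 1.02 against 30.7 ± 0.990 FPKM, and CDC6 was higher, at 53.3 ± 1.12 against 47.5 ± 0.565 FPKM (SD, n = 3 each), with log2 fold changes of -0.22 and 0.17.

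GINS is a complex of 4 subunits that stays with CDC45 and the MCM ring at the fork. In 231-BR cells 2 of its subunits were higher, not far from the 44.4% of all genes tested that were. GINS4 (gene 84296) was read at 18.9, 19.0 and 18.4 FPKM in the 231-BR libraries against 11.2, 11.8 and 10.9 FPKM in the MDA-MB-231 libraries. The groups did not overlap, and the log2 fold change was 0.73 (SE 0.040, limma adjusted p = 7.6e-08), 1.66-fold. GINS3 (gene 64785, chr16:58295080-58406144, plus strand) was read at 20.04, 19.5 and 19.7 FPKM against 14.1, 13.3 and 13.8 FPKM, a log2 fold change of 0.52. The libraries overlapped for the other two. GINS1 had 12.1 ± 0.695 and 12.02 ± 0.461 FPKM, and GINS2 had 41.4 ± 0.643 and 39.3 ± 1.81 FPKM (SD, n = 3 each), with 95% intervals of the log2 fold change from -0.10 to 0.13 and from -0.002 to 0.16. Both values were below 0 after median-of-ratios scaling, at -0.069 and -0.006. Without MDA-MB-231 replicate 1, GINS2 passed with a log2 fold change of 0.114.

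The clamp PCNA, which tethers polymerases to the template, was read at 150, 154 and 153 FPKM in 231-BR libraries against 181, 185 and 178 FPKM in MDA-MB-231 libraries, a log2 fold change of -0.25 (SE 0.024, limma adjusted p = 4.6e-06). Of the loader RFC, the 4 small subunits are among the 40 genes. None of them was called lower, where 32.9% of all genes tested were, and 2 were higher, where 44.4% were. RFC4 passed as lower, at -0.123, after median-of-ratios scaling. The large subunit RFC1, which is not among the 40, was lower with 25.03 ± 1.15 against 30.3 ± 0.627 FPKM (SD, n = 3 each), for a log2 fold change of -0.28. RFC3 was read at 36.8, 37.9 and 36.0 FPKM against 28.3, 28.8 and 26.7 FPKM, a log2 fold change of 0.40, and RFC5 had 49.1 ± 0.675 against 41.4 ± 1.08 FPKM (SD, n = 3 each), for a log2 fold change of 0.24. RFC2 and RFC4 overlapped between the lines, with 46.1 ± 1.92 and 46.3 ± 1.68 FPKM for RFC2 and 64.5 ± 2.37 and 66.3 ± 2.73 FPKM for RFC4 (SD, n = 3 each). Their 95% intervals ran from -0.09 to 0.08 and from -0.12 to 0.04.

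RPA coats single-stranded DNA at the fork. All 3 of its subunits were lower in 231-BR cells by small amounts, where 32.9% of all genes tested were lower. RPA2 had 34.4 ± 0.996 against 41.7 ± 1.18 FPKM, RPA3 had 11.3 ± 0.245 against 13.01 ± 0.652 FPKM and RPA1 had 69.0 ± 0.893 against 72.8 ± 0.778 FPKM (SD, n = 3 each), with log2 fold changes of -0.28, -0.20 and -0.08. The call for RPA1 was lost without 231-BR replicate 3 and without MDA-MB-231 replicate 2, with adjusted p of 0.053 and 0.054 from limma.

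Among the 6 members that encode polymerase and primase subunits, 4 were lower in 231-BR cells, including the 3 catalytic polymerase subunits, and the accessory subunits POLE2 and POLA2 were higher. The shares of all genes tested were 32.9% lower and 44.4% higher. POLE2 (gene 5427, chr14:49643555-49688422, minus strand), the accessory subunit of the leading-strand polymerase epsilon, had the largest increase of the 40 genes. It was read at 38.7, 39.4 and 37.6 FPKM in the 231-BR libraries and at 22.3, 21.6 and 20.4 FPKM in the MDA-MB-231 libraries, without overlap. The log2 fold change was 0.85 (SE 0.038, limma adjusted p = 1.8e-08), 1.80-fold. POLE (gene 5426, chr12:132623753-132687365, minus strand), the catalytic subunit of the same polymerase, was read at 15.3, 15.2 and 15.2 FPKM against 21.7, 21.8 and 21.8 FPKM, a log2 fold change of -0.51. Polymerase alpha, which makes the primers together with primase, showed the same arrangement at a smaller size. Its catalytic subunit POLA1 (gene 5422, chrX:24693919-24996986, plus strand) was read at 9.83, 10.2 and 9.18 FPKM against 14.7, 14.8 and 14.4 FPKM, a log2 fold change of -0.59. Its accessory subunit POLA2 (gene 23649, chr11:65261762-65305589, plus strand) was higher, at 14.6, 14.7 and 14.0 FPKM against 12.7, 13.1 and 12.2 FPKM, a log2 fold change of 0.19. POLD1, the catalytic subunit of polymerase delta, had 21.0 ± 0.540 against 27.4 ± 0.835 FPKM (SD, n = 3 each), for a log2 fold change of -0.39.

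The primase subunit PRIM1 had 23.6 ± 0.504 against 26.1 ± 1.63 FPKM (SD, n = 3 each), for a log2 fold change of -0.14 whose call was lost without 231-BR replicate 1 (adjusted p = 0.058) and with the variance trend left out (adjusted p = 0.051). Of the enzymes that finish Okazaki fragments, DNA ligase LIG1 was lower, with 18.1 ± 1.05 against 20.8 ± 0.982 FPKM (SD, n = 3 each), for a log2 fold change of -0.21. The flap endonuclease FEN1 had 73.7 ± 0.497 against 69.9 ± 1.22 FPKM (SD, n = 3 each), for a log2 fold change of 0.08 that passed the test but turned to -0.006 after median-of-ratios scaling, and whose call was lost without MDA-MB-231 replicate 2 (adjusted p = 0.059 from limma) and with the variance trend left out (adjusted p = 0.051).

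The enzymes that supply deoxynucleotides were lower in 231-BR cells for 3 of 4 genes, where 32.9% of all genes tested were lower. TYMS differed most of all 40 genes. TYMS (gene 7298, chr18:657604-673578, plus strand) encodes thymidylate synthase, which makes dTMP from dUMP and is the target of fluorouracil. It was read at 124, 128 and 126 FPKM in the 231-BR libraries and at 256, 256 and 248 FPKM in the MDA-MB-231 libraries, the highest level of any of the 40 genes in MDA-MB-231 cells. The log2 fold change was -1.003 (SE 0.023, limma adjusted p = 1.8e-10), with a 95% interval from -1.05 to -0.95. RRM1 and RRM2 encode the large and small subunits of ribonucleotide reductase, which makes deoxynucleotides from ribonucleotides. RRM1 was read at 66.5, 68.6 and 66.9 FPKM against 91.8, 91.5 and 92.1 FPKM, and RRM2 at 154, 152 and 152 FPKM against 182, 184 and 177 FPKM. Neither overlapped between the lines, and the log2 fold changes were -0.45 and -0.24. Thymidine kinase TK1, the salvage route to the same product as TYMS, had 84.3 ± 3.23 and 85.9 ± 3.96 FPKM (SD, n = 3 each) and did not pass the test, with a 95% interval from -0.11 to 0.06. After median-of-ratios scaling TK1 passed as lower, at -0.111.

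Of the 4 regulators of S-phase entry, 3 were lower, where 32.9% of all genes tested were. E2F1, an activating E2F factor, was read at 24.1, 23.95 and 24.2 FPKM in 231-BR libraries against 30.5, 30.7 and 33.7 FPKM in MDA-MB-231 libraries, a log2 fold change of -0.39 (SE 0.040, limma adjusted p = 7.9e-06). E2F2, a related activator and the least expressed of the 40 genes, was read at 1.33, 1.54 and 1.44 FPKM against 2.26, 2.26 and 2.23 FPKM, a log2 fold change of -0.62. The cyclins E1 and E2 are the partners of CDK2 at the G1/S boundary. CCNE1 had 8.37 ± 0.112 against 10.2 ± 0.298 FPKM (SD, n = 3 each), for a log2 fold change of -0.29. CCNE2 had 20.8 ± 0.413 and 21.9 ± 1.21 FPKM (SD, n = 3 each) with overlapping libraries and a 95% interval from -0.17 to 0.02, and it passed as lower at -0.155 after median-of-ratios scaling and at -0.138 after quantile normalization.

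Because subunits of the same complex differed in opposite directions, their shares within a complex were set side by side. The summed FPKM of MCM2 to MCM7 came to 370 ± 2.99 for 231-BR against 479 ± 5.96 for MDA-MB-231 (SD, n = 3 each). MCM2 made up 15.5% ± 0.280 of that sum in 231-BR against 10.0% ± 0.130 in MDA-MB-231, whereas MCM3 made up 19.5% ± 0.240 and 26.1% ± 0.280 (SD, n = 3 each). MCM3 exceeded MCM2 by 1.26-fold in 231-BR cells and by 2.60-fold in MDA-MB-231 cells. The shares of MCM5 and MCM6 overlapped between the lines. The summed FPKM of GINS was higher in every 231-BR library, with 92.1 ± 0.310 for 231-BR against 76.4 ± 2.45 for MDA-MB-231 (SD, n = 3 each), and the share of GINS4 was 20.4% ± 0.400 against 14.8% ± 0.830. The sum of RFC2 to RFC5 was 182 ± 0.580 for MDA-MB-231 and 196 ± 2.43 for 231-BR, with a ratio of the most to the least expressed subunit of 2.38 ± 0.190 and 1.75 ± 0.050 (SD, n = 3 each).

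Ratios of partner genes restate the differences of the single genes given above. POLE2 over POLE was 2.53, 2.60 and 2.48 in 231-BR libraries and 1.03, 0.991 and 0.935 in MDA-MB-231 libraries, so POLE2 was the more abundant subunit in all 3 libraries of 231-BR cells and near equality in MDA-MB-231 cells. POLA2 over POLA1 was 1.49 ± 0.039 against 0.864 ± 0.022, and TYMS over TK1 was 1.498 ± 0.036 against 2.95 ± 0.175 (SD, n = 3 each). Most pairs were chosen with their values known, so the ratios are a description. RRM2 over RRM1 and CCNE2 over CCNE1 were 2.27 ± 0.051 against 1.97 ± 0.049 and 2.49 ± 0.020 against 2.14 ± 0.164 (SD, n = 3 each). ORC6 over ORC1 was 2.37 ± 0.104 and 2.39 ± 0.070 (SD, n = 3 each), with overlapping libraries. The exact two-sided permutation test of all 15 ratios gave p = 0.1 for 14 of them, the smallest p that 3 libraries against 3 allow (0.107 after Benjamini-Hochberg adjustment over the 15), and p = 0.9 for ORC6 over ORC1. That smallest p says only that the libraries of the lines do not overlap, which held for 78.4% of all single genes tested. No share over other pairs of genes was computed, so the count of 14 is not particular to these pairs.

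**Figure D3:**
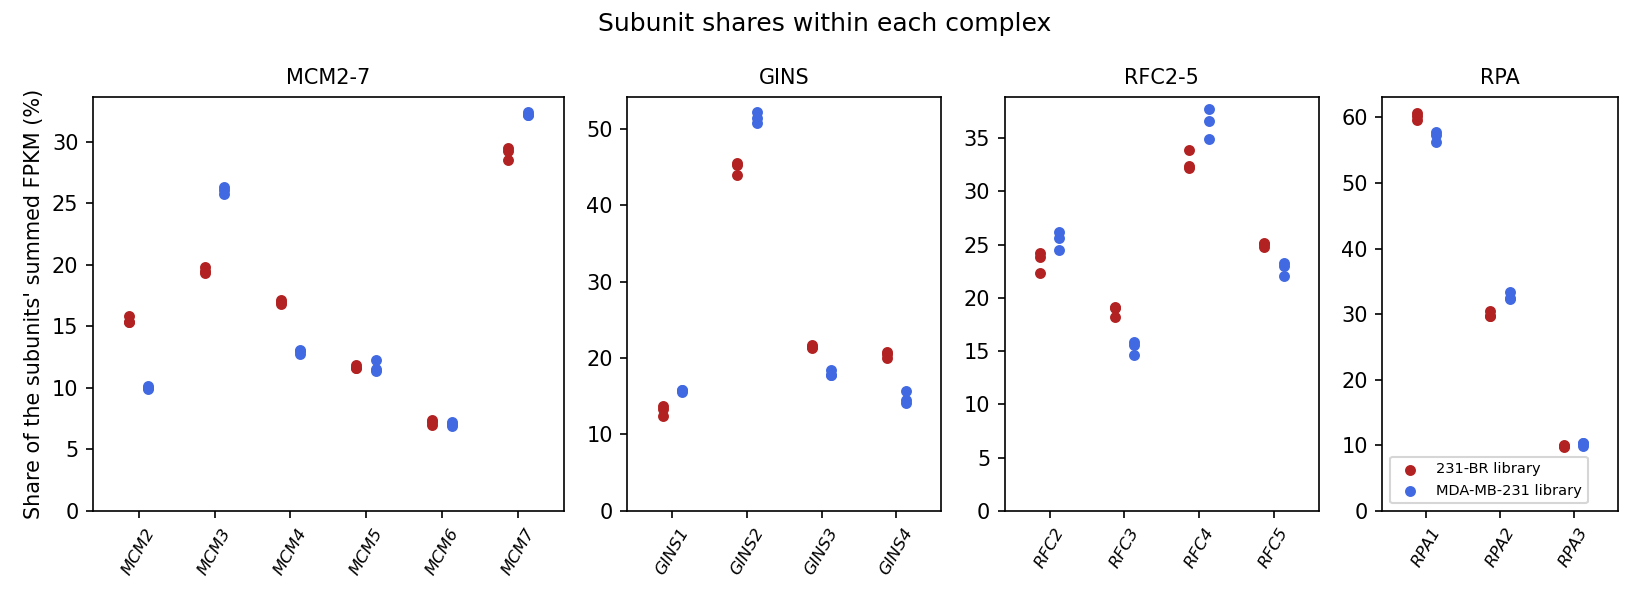
Share of each subunit in the summed FPKM of its complex, in percent, with a point for each library of 231-BR (red) and MDA-MB-231 (blue). MCM2 makes up 15.5% of the MCM2-7 sum in 231-BR cells against 10.0% in MDA-MB-231 cells and GINS4 20.4% of the GINS sum against 14.8%, while MCM3 makes up 19.5% against 26.1%. Shares of a sum depend on each other, so a share can move while the gene's own level does not.

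The promoters of the members were searched for the E2F element, since E2F factors are known regulators of many of these genes. RefSeq promoter sequence of GRCh38.p14 was matched for 34 of the 40 genes. The letters TTTCCCGC, TTTCGCGC, TTTGCCGC and TTTGGCGC were looked for on both strands in the 250 bases before the annotated start, and matches may overlap each other. They were found in 14 of the 34 members (41.2%), against 3.4% of all 27305 genes with an entry and 5.68% of the 10920 genes tested that have an entry. By call, 11 of 21 lower members (52.4%), 2 of 8 higher members (25%) and 1 of 5 members that did not pass (20%) held a match. The 14 sites are shown because members of every call share the element. The letters were not used to choose the members, but many of these genes are known E2F targets. The raised share therefore cannot be told apart from the choice of the list. Each is given as 28 bases, 5′ to 3′ on the strand of the gene, with the match in capitals, and where a promoter held several matches the window shows a single one:
MCM3 (chr6:52284899-52284926, lower): ggatggtacgTTTCCCGCcaccgcgggg
MCM6 (chr2:135876512-135876539, lower): gtcaggtttgGCGCGAAAtctccagctc
MCM7 (chr7:100101389-100101416, lower): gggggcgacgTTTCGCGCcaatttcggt
CDT1 (chr16:88803744-88803771, lower): cagggcgcccGCGGGAAAtttggcggga
PCNA (chr20:5126664-5126691, lower): agcgtcagggGCGGGAAAaggcgtgcgt
POLA1 (chrX:24693771-24693798, lower): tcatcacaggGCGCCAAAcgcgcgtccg
POLE (chr12:132687343-132687370, lower): gggtgggagcGCGCCAAAtttctcccct
LIG1 (chr19:48170441-48170468, lower): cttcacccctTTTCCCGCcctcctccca
TYMS (chr18:657604-657631, lower): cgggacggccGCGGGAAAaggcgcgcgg
E2F1 (chr20:33686388-33686415, lower): gcaaaaaggaTTTGGCGCgtaaaagtgg
E2F2 (chr1:23531258-23531285, lower): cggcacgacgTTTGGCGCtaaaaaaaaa
RFC3 (chr13:33818084-33818111, higher): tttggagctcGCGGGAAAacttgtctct
POLA2 (chr11:65261899-65261926, higher): tggctcccggTTTCGCGCatgcgtgcac
GINS2 (chr16:85688968-85688995, not passed): tctcgccgtgGCGGGAAAacggcggccg

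The first base of the match lay 9 bases before the start annotated in RefSeq in MCM7 and 174 bases before it in MCM3. These were the closest and the farthest of the 14. RefSeq starts differ from the GENCODE gene bounds used for the gene coordinates in this text. By those bounds the windows of MCM7, CDT1, LIG1, TYMS, RFC3, POLA2 and GINS2 lie wholly inside the gene. The match of POLE lies inside its gene as well, while its window runs past the bound. E2F1 and E2F2, which encode activating E2F factors, each held the letters TTTGGCGC, and E2F1 held 2 matches. MCM6 held the most, with 4. The CCAAT box, the letters CCAAT on either strand, was found in 20 of 34 members (58.8%) against 41.5% of the genes tested, in 15 of 21 lower and in 2 of 8 higher members. The CHR element of late cell-cycle genes, TTTGAA, was found in 1 member, RRM1 (2.94% against 12.4% of the genes tested). A match is a description of letters in a window, and no match says only that the letters are not in it.

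The lower and the higher members that differed most are given with more of their sequence for context, taken outside the gene's own annotated exons and with the E2F letters in capitals where they occur. The MCM3 stretch holds the site listed above, the TYMS stretch ends where the window with its site begins, and the POLE2 promoter held no E2F match:
TYMS (chr18:657403-657603, plus strand): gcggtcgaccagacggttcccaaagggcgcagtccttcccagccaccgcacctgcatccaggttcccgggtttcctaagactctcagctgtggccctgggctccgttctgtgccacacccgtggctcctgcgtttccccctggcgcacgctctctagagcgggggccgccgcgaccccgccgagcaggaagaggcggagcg
MCM3 (chr6:52284882-52284992, minus strand): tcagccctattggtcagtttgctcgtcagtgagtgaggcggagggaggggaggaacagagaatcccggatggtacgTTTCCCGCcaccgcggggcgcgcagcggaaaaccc
POLE2 (chr14:49688423-49688464, minus strand): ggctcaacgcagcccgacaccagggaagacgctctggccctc

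Each member was also set beside the genes around it, as the median log2 fold change of 20 genes on either side in the RefSeq gene order, over 11088 genes with a mean of at least 1 FPKM. Over the members this median ran from -0.51 around TYMS, which lies near the end of chromosome 18 and had 23 such neighbours, to 0.41 around POLE2. Over the genes placed that had all 40 neighbours, the 5th and 95th percentiles were -0.33 and 0.58. The neighbours of POLE2 lay within that range. Those of TYMS lay below it, but a median of 23 genes is not fully comparable with medians of 40. The neighbours of MCM3 had a median of -0.38, also below the 5th percentile. GINS4 lay among neighbours with a median of -0.004, and E2F2, which was lower, among neighbours with a median of 0.28. Of the 33 members called, 24 (72.7%) had the sign of their neighbours, against 74.4% of all 8955 called genes that could be placed. Spearman's rho between the gene and its neighbours was 0.523 over the 40 members and 0.515 over all genes placed. These points share the same 6 libraries and, in part, the same neighbours, and the part of the region in each gene's difference was not tested.

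**Figure D4:**
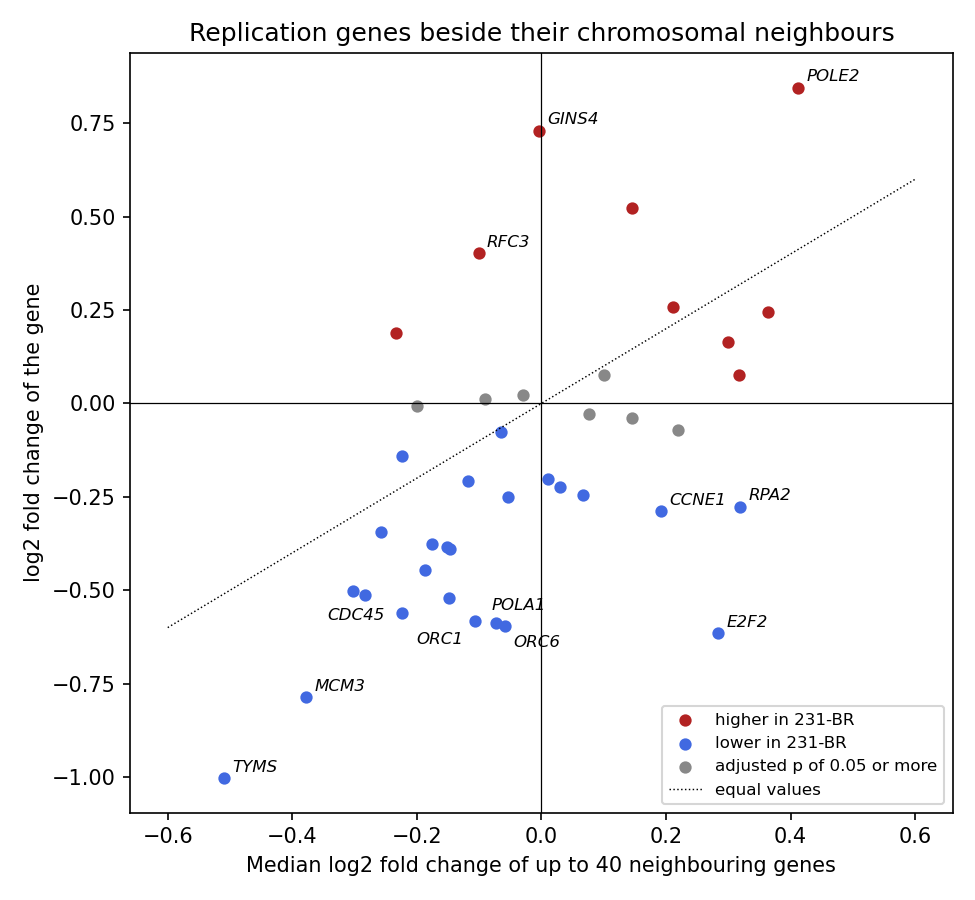
Log2 fold change of each of the 40 genes against the median log2 fold change of up to 40 neighbouring genes on its chromosome, coloured by the call. TYMS (-0.51 for its neighbours) and POLE2 (0.41) stand at the ends of both axes, while GINS4 and E2F2 lie away from the dotted line of equal values.

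Some members overlap exons of a gene on the other strand, and whether the reads were counted by strand is not stated, so that reads of such pairs cannot be told apart. TYMS shares 1150 of its 2470 exon bases with ENOSF1 and TYMSOS. ENOSF1 was read at 13.6, 12.6 and 13.02 FPKM in 231-BR libraries and at 13.3, 13.1 and 14.7 FPKM in MDA-MB-231 libraries, with a log2 fold change of -0.07 (adjusted p = 0.247 from limma) that passed as lower, at -0.151, after median-of-ratios scaling. TYMSOS, which starts beside the TYMS promoter, was lower like TYMS, at 0.78 to 1.40 against 2.34 to 3.05 FPKM, a log2 fold change of -1.35. CCNE2 shares 1629 of 4397 exon bases with INTS8, which was lower at -0.24, and MCM7 shares 392 of 4386 with AP4M1, which was lower at -0.37. RFC5 shares 186 of 3249 with WSB2, which was higher like RFC5, at 0.50. FEN1 shares 166 of 2478 with TMEM258 and RPA1 shares 156 of 5492 with SMYD4. These partners differed in the opposite direction to the member, at -0.28 and 0.31. RFC4 shares only 21 of 2997 with EIF4A2. EIF4A2 was read at 449 to 453 FPKM against 258 to 275 FPKM, higher in 231-BR cells where RFC4 did not pass the test.

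Other genes of replication, listed by function, did not share the lower median of the 40 members. Members and lists were chosen with earlier results of these data known, so the contrast between them is a description and may reflect the choice. Among all genes tested 44.4% were called higher and 32.9% lower, and the counts of each list stand beside these shares. Among 38 other fork and origin genes, 18 were higher and 15 lower in 231-BR cells, not far from those shares. Their median log2 fold change was 0.068, which became -0.014 after median-of-ratios scaling. RNASEH2A, the catalytic subunit of the nuclease that removes ribonucleotides from DNA, was read at 96.3 ± 2.29 FPKM with 231-BR against 45.3 ± 0.923 FPKM with MDA-MB-231 (SD, n = 3 each), for a log2 fold change of 1.09. STN1 and CTC1, subunits of a complex that recruits polymerase alpha at telomeres, were higher at 0.89 and 0.65. ORC2 was lower, with 12.7 ± 0.127 against 22.4 ± 0.943 FPKM (SD, n = 3 each), for a log2 fold change of -0.81, as were the helicase gene MCM8 at -0.40 and the primase subunit PRIM2 at -0.38. The other subunits of the origin recognition complex, named after their values were seen, were higher, with ORC4 at 0.43, ORC5 at 0.22 and ORC3 at 0.18. Of the accessory polymerase subunits in this list, likewise named after their values were seen, POLD2 and POLE3 were lower at -0.36 and -0.08, POLD3 was higher at 0.15, and POLE4 (0.13) and POLD4 (-0.07) did not pass. After quantile normalization POLE3 (-0.025) and POLD3 (0.081) did not pass either, and POLD4 passed as lower at -0.295. Among 12 genes of clamp loader variants and chromatin assembly 6 were higher and 3 lower. The histone chaperones ASF1B and NASP were higher at 0.93 and 0.52, as was the maintenance methyltransferase DNMT1 at 0.48. Its recruiting factor UHRF1 was lower at -0.50, CDCA7 at -0.86 and the chromatin assembly subunit CHAF1A at -0.30.

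Nucleotide supply outside the members was mostly higher in 231-BR cells, with 11 of 16 genes higher, 5 lower and a median of 0.314. Of all genes tested 44.4% were higher and 32.9% lower. DTYMK, which phosphorylates the product of TYMS, was lower with 38.3 ± 0.841 against 57.3 ± 2.85 FPKM (SD, n = 3 each), for a log2 fold change of -0.58. DUT, which makes the substrate of TYMS from dUTP, was lower at -0.41. SAMHD1, which degrades deoxynucleotides, was lower at -0.79. The salvage kinases TK2 of mitochondria and DCK were higher at 1.06 and 0.54, and PPAT, which commits precursors to purine synthesis, at 0.62.

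Among 28 regulators of the E2F, RB and cyclin network, 12 were higher and 13 lower, where 44.4% and 32.9% of all genes tested were. Some of the larger differences were in this list. CDKN1A, the CDK inhibitor p21 that also binds PCNA, was read at 9.95 ± 0.728 FPKM with 231-BR against 37.9 ± 0.536 FPKM with MDA-MB-231 (SD, n = 3 each), for a log2 fold change of -1.92 (SE 0.049, limma adjusted p = 3.2e-10). CDKN1C, a related inhibitor, was higher at 6.55 ± 0.639 against 1.18 ± 0.225 FPKM (SD, n = 3 each), for a log2 fold change of 2.38. RB1 was lower at -0.59 and its relative RBL1 at -0.66, and the repressor E2F8 at -1.04. TFDP2, a dimer partner of E2F factors, was higher at 1.15, CDKN2D at 0.64, CCND1 at 0.38 and CCNA2 at 0.15. E2F3 was lower at -0.10, and CDK2, the kinase partner of cyclin E, did not pass with 43.2 ± 0.413 and 45.2 ± 1.97 FPKM (SD, n = 3 each) but passed as lower, at -0.147, after median-of-ratios scaling. Among 16 replication stress and checkpoint genes 9 were higher and 4 lower, with a median of 0.142 that was -0.002 after quantile normalization. CHEK1, the kinase that restrains the cell cycle when forks stall, was higher at 0.65, the nuclease gene EXO1 at 0.59 and BRCA2 at 0.49, and FANCD2 and RAD17 were lower at -0.43 and -0.37.

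Mitotic genes, the other arm of the proliferation programme, had a median near that of the replication genes. Of 20 genes 14 were lower and 3 higher in 231-BR cells, where 32.9% and 44.4% of all genes tested were. The median log2 fold change of the 20 was -0.181. MKI67, the common proliferation marker, had 93.5 ± 1.55 against 119 ± 4.39 FPKM (SD, n = 3 each), for a log2 fold change of -0.35. FOXM1, which drives transcription in G2 and mitosis, was lower at -0.48, NUSAP1 at -0.45 and BUB1 at -0.41. CDC20, CENPE and BIRC5 were higher at 0.48, 0.24 and 0.15.

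**Figure D5:**
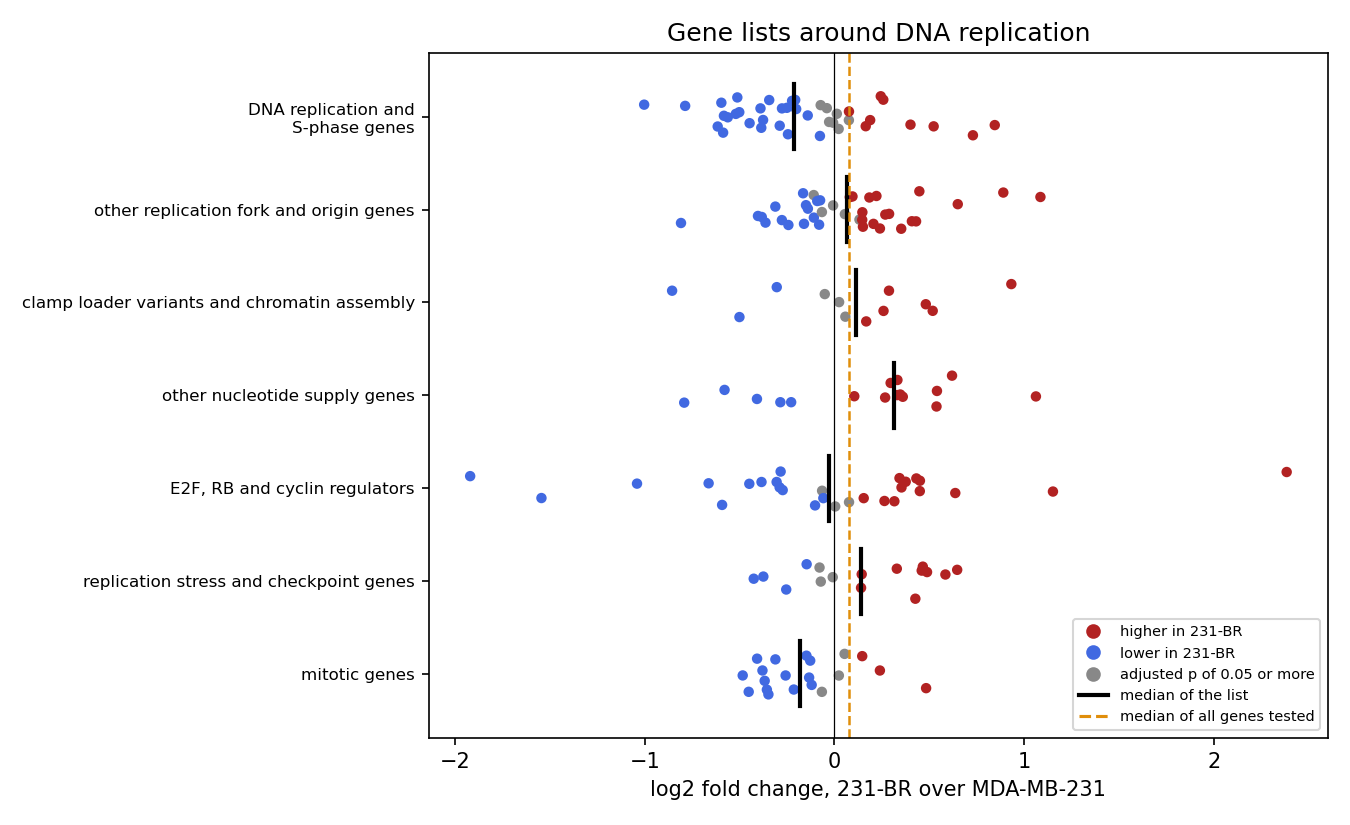
Log2 fold changes of 231-BR over MDA-MB-231 for the 40 members and the genes of 6 related lists, with a point for each gene coloured by its call, a black bar for the median of the list and a dashed line for the median of all genes tested. The medians of the members (-0.215) and of the mitotic genes (-0.181) lie lowest and that of other nucleotide supply (0.314) highest.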

How the data were processed

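Poly(A) RNA of 6 libraries was sequenced. The submitters' processing notes name HISAT2 2.0.4, Bowtie2 2.2.5 and the build GRCh38.p12, and the values that the authors deposited are FPKM to 2 decimals, without read counts. The files of the 6 samples held the same values as the matrix. For genes averaging at least 0.1 FPKM, log2(FPKM + 0.1) was modelled on the cell line by limma 3.58.1 in R 4.3.3 (lmFit, eBayes with trend), in place of the study's count model. Benjamini-Hochberg adjustment covered all these genes. Fold changes of low genes are drawn toward 0 by the 0.1.

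The 40 members and the related lists were chosen with earlier results of these data known. All 40 members are named. Of each related list at most the 3 largest increases and the 3 largest decreases with an adjusted p under 0.05 and a mean of at least 1 FPKM in either line are named, and MKI67, CCND1, CDKN1A, RB1, CDK2, CCNA2 and E2F3 in any case. A few single genes that this rule or the marker lists would name are not reported here. Of the genes with opposite-strand exons only some were named, without a fixed rule on the size of the overlap. AND1 had no row under that symbol, but it is another name of WDHD1, which the same list holds and which was tested. CDKN2A and CDKN2B fell under the filter. Gene coordinates and exons came from GENCODE release 29 (GRCh38), and gene order and promoters from RefSeq (GRCh38.p14).

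The fit was tested on values simulated from those of this comparison. Only 200 genes were changed in the simulation, whereas 77.3% of all genes tested were called in the data. The adjustment was therefore stricter in the simulation, and its recovery counts do not give the sensitivity of the calls above. With 13516 genes run, 29 of 50 genes changed by 1.2-fold, 47 of 50 by 1.5-fold, 49 of 50 by 2-fold and 50 of 50 by 4-fold were recovered, and 10 of 13316 unchanged genes were called. Python 3.11.15, pandas 2.3.3, scipy 1.17.1 and matplotlib 3.10.9 were used for tables, exact permutation tests and figures. Alternatives were pseudocounts of 1 and 0.01, a filter at 1 FPKM or none, quantile normalization, median-of-ratios scaling, a replicate block, eBayes with no trend, each library left out, and a 2-fold size rule.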

Additional observations from a re-analysis of the deposited data

How the results depend on the processing

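Of 560 values of single members under 14 alternatives, 538 kept their direction and their side of the threshold, and 30 of the 33 members called did so under every alternative run, with RPA1, PRIM1 and FEN1 as the exceptions. The sign turned only in members near 0. After median-of-ratios scaling the log2 fold change was -0.060 for MCM4, -0.069 for GINS1, -0.006 for GINS2 and -0.006 for FEN1. After quantile normalization it was -0.080 for GINS1 and 0.000 for TK1. With a library left out, GINS1 ran from -0.022 to 0.059 and RFC2 from -0.036 to 0.024. Of 784 values of 56 related genes, 766 kept their direction and their side of the threshold, and the sign turned in POLD4, which ran from -0.143 to 0.001 with a library left out. Related genes whose call was lost under an alternative were E2F3 (without 231-BR replicate 2), BIRC5 and POLD3 (median-of-ratios scaling), and POLE3 and POLD3 (quantile normalization), with POLE3 also lost without the variance trend and with a library left out.

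The count of members at least 1.5-fold lower was 2 with a pseudocount of 1, 9 after median-of-ratios scaling, 1 under a 2-fold size rule and 3 to 6 with a library left out, with 3 without 231-BR replicate 3. The 2-fold rule left 0 higher. The criteria for differential expression left 0 lower members with a pseudocount of 1 and after quantile normalization, and 0 to 1 with a library left out.

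The median of all genes was 0.056 and 0.081 with pseudocounts of 1 and 0.01, 0.063 with no filter, 0.060 with a filter at 1 FPKM, -0.002 after median-of-ratios scaling, -0.060 after quantile normalization and 0.075 to 0.081 with a library left out. The median of the members was -0.297 after median-of-ratios scaling, -0.236 after quantile normalization and -0.245 to -0.193 with a library left out. After median-of-ratios scaling the medians were -0.442 (MCM subunits), -0.187 (origin factors), -0.089 (clamp and loader), -0.284 (RPA), -0.346 (polymerases and primase), -0.147 (Okazaki fragments), -0.429 (nucleotide supply), -0.421 (regulators of S-phase entry), -0.014 (other fork and origin genes), 0.030 (loader variants and chromatin assembly), 0.231 (other nucleotide supply), -0.110 (E2F, RB and cyclins), 0.060 (stress and checkpoint) and -0.263 (mitosis). After quantile normalization they were -0.388 (MCM subunits), -0.176 (origin factors), -0.295 (RPA), -0.320 (polymerases and primase), -0.284 (nucleotide supply), -0.430 (regulators of S-phase entry), 0.012 (other fork and origin genes), 0.022 (loader variants and chromatin assembly), 0.271 (other nucleotide supply), -0.075 (E2F, RB and cyclins), -0.002 (stress and checkpoint, with 7 genes lower) and -0.138 (mitosis). With a library left out, loader variants and chromatin assembly ran from 0.080 to 0.149 and other nucleotide supply from 0.292 to 0.339. The cause of these shifts was not tested.

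Deviations from the line mean correlated at 0.087, -0.040 and -0.106 between libraries with the same replicate number. Between libraries with unlike numbers the correlations ran from -0.154 to 0.183. Whether libraries with the same number shared a culture or a preparation was not tested. With the replicate block 9 members were higher and 24 lower, as without it, and the median was -0.215. Among the related genes the block changed 1 call, POLE4 at 0.132, which passed with limma (adjusted p = 0.036). The unknown depth limits what can be said of E2F2, whose values lie nearest the step of the 2 decimals.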
